A study of Mus musculus with 4 samples.

Results

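The transcription factor NRF2 (Nfe2l2), 7 of its target genes (Hmox1, Nqo1, Gclm, Gclc, Txnrd1, Srxn1 and Slc7a11) and the metallothionein genes Mt1 and Mt2 were followed through the endothelial cells (ECs) and mural cells of the mouse heart. These 10 genes were taken by symbol from the 31253 genes counted, and each matched 1 row. NRF2 is held in the cytoplasm by KEAP1 and degraded until oxidants or electrophiles modify KEAP1, and it then enters the nucleus, pairs with a small MAF protein and binds the antioxidant response element (ARE). Its targets make glutathione, keep thiols reduced and break down heme. Metallothioneins are small cysteine-rich proteins that bind zinc, copper and cadmium, and their genes are switched on by the zinc-sensing factor MTF1 through metal response elements (MREs) and also respond to glucocorticoids and oxidative stress.

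The cells were RFP-positive cells of the left ventricle, sorted by FACS and profiled by 10x Genomics 3′ single-cell RNA-seq, which counts unique molecular identifiers (UMIs), 1 for each captured transcript. NC mice (2 libraries) ate a diet that drew 10% of its calories from fat, and HFpEF mice (2 libraries) received a 60% fat diet together with 0.5 mg/ml L-NAME, an inhibitor of nitric oxide synthases, over 20 weeks. All mice carried a floxed Scarb1 allele (the gene of the scavenger receptor SR-B1) that was made in C57BL/6N mice. They also carried the tamoxifen-inducible Cdh5-CreER transgene and an RFP (tdTomato) reporter behind a floxed stop. RFP therefore marks cells in which the EC promoter Cdh5 had driven recombination. The paper does not state the background of the crossed mice. The labels do not tell which Scarb1 genotype a library has, and genotypes were not compared. The paper compares single-floxed with double-floxed mice on each diet in its sorted cells. The 2 libraries of a diet are therefore likely to differ in genotype and may not be replicates of each other. The number of mice per library is not given in the sources used here. The p-values therefore measure only the spread between these libraries, which may be technical or may include a genotype difference.

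Of 41843 deposited cells, 40154 had more than 200 genes and less than 20% mitochondrial UMIs, and they held 118987706 UMIs. The median depth was 3754 and 4127 UMIs per cell with NC and 1736.5 and 1619 with HFpEF. Cells were assigned by marker genes alone, and none of the 10 genes was a marker. An artery- or vein-gated EC had at least 20% of its EC class marker UMIs from artery genes (such as Gja5, Gja4 and Hey1) or vein genes (such as Selp and Vwf), and a capillary-gated EC, with genes such as Car4 and Gpihbp1, had less than 20% from artery and vein genes together. This gave 31725 capillary-gated, 3062 artery-gated and 540 vein-gated ECs and 1224 mural-gated cells, which are pericytes and smooth muscle cells with markers such as Pdgfrb, Rgs5 and Myh11. UMIs of a gene were summed over the cells of a class in each library and scaled to a total of 1000000 UMIs per sum (CPM), and 4 values in a row are given in the order NC library 1, NC library 2, HFpEF library 1 and HFpEF library 2. In such sums, fewer cells that express a gene and less RNA per cell cannot be told apart. Mural-gated cells lay outside the lineage that Cdh5-CreER is meant to label, and their pan-EC markers summed to between 2880 and 3374 CPM against 15272 to 18055 CPM for the mural markers. In capillary-gated ECs the pan-EC markers summed to between 5959 and 6924 CPM, and 429 cells that carried markers of several other lineages, or of 1 without exceeding the pan-EC markers, were set aside. Doublets were not called, and the part of EC RNA in the mural values was not tested.

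All 10 genes are protein coding in the GENCODE annotation of GRCm38. Mt2 (chromosome 8, 94172664 to 94173568, plus strand) and Mt1 (94179082 to 94180327, plus strand) lie 5514 bases apart. Hmox1 (75093621 to 75100589) and Nqo1 (107388225 to 107403206) are on the same chromosome, Nfe2l2 (75675513 to 75704641) and Srxn1 (152105516 to 152111376) are on chromosome 2, Slc7a11 (49892526 to 50443614) and Gclm (122245557 to 122270732) on chromosome 3, Gclc (77754535 to 77794485) on chromosome 9 and Txnrd1 (82833951 to 82897712) on chromosome 10. Mt2 overlaps Gm45774 and Slc7a11 overlaps Gm37854 on the other strand, and Txnrd1 overlaps Eid3 on the same strand. The strand setting of the counting is not stated, so reads of these pairs may not have been kept apart.

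Because the results turn on Mt1, Mt2 and the glutathione and thioredoxin genes, the 250 bases before the transcription start of these genes were taken from a table of RefSeq promoters (GRCm38.p6) in which 8 of the 10 genes were matched, all but Hmox1 and Gclc. They were searched on both strands for the ARE core TGACNNNGC and for the MRE cores TGCACNC and TGCGCNC. Of 32851 windows of this length over all genes, 10.16% hold the ARE core and 21.41% an MRE core, so a match is common. The metallothionein windows, both on the plus strand, are shown 5′ to 3′ with MRE cores in capitals, for Mt1 at chr8:94178839-94179088 and for Mt2 at chr8:94172368-94172617.
Mt1: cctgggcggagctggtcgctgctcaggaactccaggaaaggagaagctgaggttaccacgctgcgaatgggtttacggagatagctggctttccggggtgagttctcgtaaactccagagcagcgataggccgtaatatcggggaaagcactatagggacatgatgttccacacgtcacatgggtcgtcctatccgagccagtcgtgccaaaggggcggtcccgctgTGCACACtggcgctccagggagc
Mt2: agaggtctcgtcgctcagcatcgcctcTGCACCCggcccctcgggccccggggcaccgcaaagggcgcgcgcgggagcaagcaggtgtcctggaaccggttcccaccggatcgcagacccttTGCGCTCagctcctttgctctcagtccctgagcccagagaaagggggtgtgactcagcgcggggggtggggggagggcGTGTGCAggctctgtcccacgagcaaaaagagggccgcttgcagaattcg
The Mt1 window held 1 MRE core, 23 bases before the RefSeq start, and no ARE core. This window ends at base 94179088, and the GENCODE gene starts at 94179082. Bases after the window were not searched, so cores before a start further downstream would be missed. The Mt2 window held 3 MRE cores, 223, 128 and 50 bases before the start, and 1 ARE core at 79. For the NRF2 targets, Gclm is shown at chr3:122245307-122245556 and the window of the second of 3 Txnrd1 starts at chr10:82858956-82859205, both on the plus strand and with the ARE core in capitals.
Gclm: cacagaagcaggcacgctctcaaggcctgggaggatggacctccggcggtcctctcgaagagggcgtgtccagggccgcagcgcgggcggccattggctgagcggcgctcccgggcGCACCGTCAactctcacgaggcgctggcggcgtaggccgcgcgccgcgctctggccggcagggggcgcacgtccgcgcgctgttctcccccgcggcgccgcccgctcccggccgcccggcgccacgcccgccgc
Txnrd1: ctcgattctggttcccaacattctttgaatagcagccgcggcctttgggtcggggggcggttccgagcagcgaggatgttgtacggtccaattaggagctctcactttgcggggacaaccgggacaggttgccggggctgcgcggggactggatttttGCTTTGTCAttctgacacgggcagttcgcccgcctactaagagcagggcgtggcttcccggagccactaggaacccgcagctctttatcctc
The ARE core lies 134 bases before the start of Gclm, where it overlaps 1 of 2 MRE cores, and 92 bases before this Txnrd1 start. Nfe2l2 held an ARE core 240 bases before its start and Srxn1 an MRE core at 19. The windows of Srxn1, Nqo1 and Slc7a11 and the other Txnrd1 windows held no ARE core. No match says only that these letters are not in this window.

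Of the 8 genes tested between classes, Mt1 and Mt2 had the largest differences. In mural-gated cells Mt1 reached 769.9 and 746 CPM with NC and 633 and 605 CPM with HFpEF. In artery-gated ECs it had 350.0 and 319 CPM with NC and 141 and 136 CPM with HFpEF, and in capillary-gated ECs 17.5, 8.98, 21.6 and 18.3 CPM in the same order. The 4 mural values lay above the 4 artery values, and these above the 4 capillary values. In vein-gated ECs Mt1 was at 577, 250.03, 582 and 56.8 CPM, so that their range overlapped the artery range.

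Mt2 had 93.0 and 69.6 CPM in the mural-gated cells of the NC libraries and 148 and 94.7 CPM in those of the HFpEF libraries. In artery-gated ECs it reached 127, 94.1, 47.3 and 50.2 CPM and in capillary-gated ECs 3.20, 1.88, 5.45 and 4.24 CPM. Mural and artery values all stood above the capillary values but overlapped each other. Vein-gated ECs had 342, 58.5, 177 and 13.4 CPM of Mt2, the widest spread of the 4 classes.

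**Figure D1:**
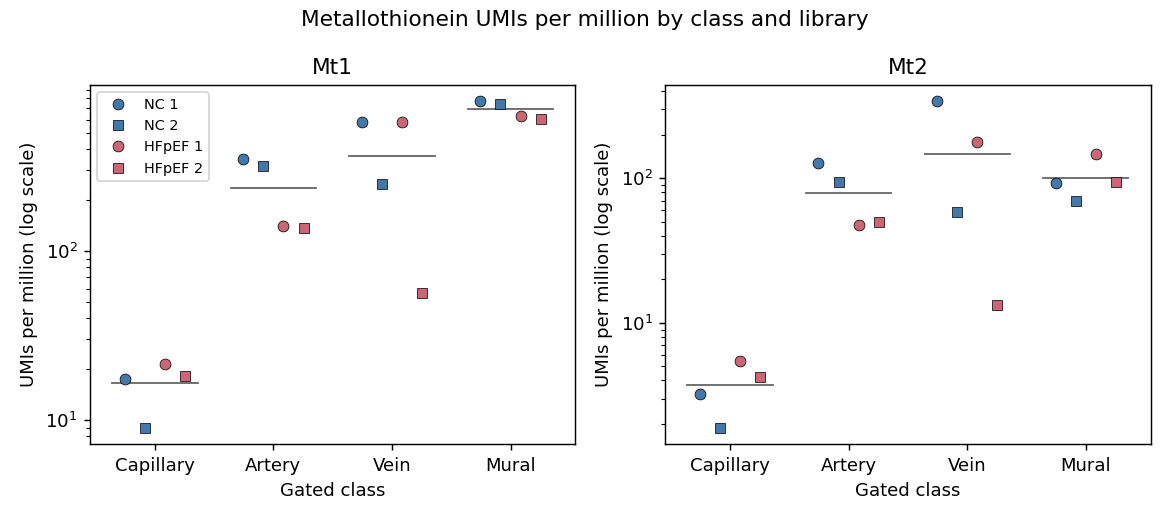
Mt1 and Mt2 in CPM (log axis) in capillary-, artery- and vein-gated ECs and mural-gated cells; each point is 1 of the 4 libraries. Capillary values of Mt1 lie between 8.98 and 21.6 CPM and mural values between 605 and 769.9 CPM; in artery-gated ECs both HFpEF libraries lie below both NC libraries.

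The class difference was tested over the 16 sums of 4 classes in 4 libraries, with the library as a term, by the quasi-likelihood test of edgeR, and p-values were adjusted over all genes by Benjamini-Hochberg. Of the 10 genes, 8 passed the filter on low counts, which left out Nqo1 and Slc7a11. In mural-gated cells, 6 of these 8 differed from capillary-gated ECs, where 46.3% of all genes tested were called, 23.5% higher and 22.9% lower. Mt1 was higher by 5.27 on the log2 scale (SE 0.30, adjusted p = 5.16e-15) and Mt2 by 4.63 (SE 0.38, adjusted p = 3.09e-11). The ratio of mural to capillary Mt1 was 44.0 and 83.1 with NC and 29.3 and 33.1 with HFpEF, above 1 in 4 of 4.

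Artery-gated ECs differed from capillary-gated ECs in 5 of the 8 genes, and all 5 were higher. Of all genes, 31.3% were called in this comparison and 15.6% were called higher. Mt1 was higher by 3.74 (SE 0.30, adjusted p = 2.47e-11) and Mt2 by 4.43 (SE 0.35, adjusted p = 3.38e-11), again in 4 of 4 libraries. The median log2 difference of the 8 genes was 0.38 here, -0.18 in mural-gated cells and 0.43 in vein-gated ECs, against -0.02, -0.01 and -0.02 over all genes. The artery to capillary ratio of Mt1 was 19.996 and 35.6 with NC and 6.52 and 7.46 with HFpEF. For Mt2 it was 39.6, 50.1, 8.68 and 11.8 in the same order, so for both genes the HFpEF ratios lay below the NC ratios.

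Vein-gated ECs differed in 5 of the 8 genes as well, 4 higher and 1 lower, where 25.4% of all genes were called, 13.2% higher and 12.2% lower. Mt1 was higher by 4.01 (SE 0.38, adjusted p = 1.94e-09) and Mt2 by 4.97 (SE 0.51, adjusted p = 7.67e-09). The ratio of vein to capillary Mt1 ranged from 3.11 in HFpEF library 2 to 33.0 in NC library 1. Fibroblast markers in the vein-gated sum were at 229, 18.6, 405 and 237 CPM against 9.49 to 14.9 CPM in capillary-gated ECs, and 3 of 7 were detected in the library with 18.6 CPM and 3 to 5 in the others. Fibroblast-gated cells themselves, of which there were 18 to 78 per library, had 1248 to 2582 CPM of Mt1. Their part in the vein values was not tested.

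At equal depth Mt1 was detected in a minority of capillary-, artery- and mural-gated cells. After every cell was thinned to 1000 UMIs and shallower cells were left out, 29.1% and 26.4% of NC and 29.9% and 27.2% of HFpEF mural-gated cells had an Mt1 UMI. The shares were 8.40%, 10.1%, 5.65% and 6.47% in artery-gated ECs and 1.18%, 0.753%, 1.20% and 1.49% in capillary-gated ECs. Unthinned, they were 53.0%, 52.0%, 49.5% and 41.4% in mural-gated cells, 13.0%, 15.1%, 9.14% and 8.65% in artery-gated ECs and 3.41%, 2.41%, 2.14% and 2.30% in capillary-gated ECs, where depth differs between the libraries. None of 46 thinned B cells had an Mt1 UMI, which allows a share of up to 6.52% of such cells over all libraries. Per library there were 1, 13, 9 and 23 of these B cells. The upper limits of their 95% exact binomial intervals were 97.5%, 24.7%, 33.6% and 14.8%. The capillary and artery shares of both diets lie under the limit of their own library and cannot be told from free RNA by it. Mural shares lay above it only in NC library 2 and HFpEF library 2. In each library the artery share lay above the capillary share at the same depth, and the 95% exact binomial intervals, which cover counting error only, did not overlap (3.44% to 8.69% against 0.875% to 1.61% in HFpEF library 1).

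Within the mural-gated cells, Mt1 was higher in cells with more smooth muscle markers, in a split chosen after seeing the data. Cells with more UMIs of Myh11, Acta2 and Tagln than of pericyte markers, 16 to 84 per library, had 1522 and 1617 CPM with NC and 909 and 1041 CPM with HFpEF. Cells with more pericyte marker UMIs (Rgs5, Kcnj8, Abcc9 and Vtn) had 585, 591, 582 and 506 CPM. The smooth muscle values were higher in 4 of 4 libraries, and the diets did not overlap in them, whereas the pericyte values differed little between libraries. Mt2 had 133, 129.5, 276 and 77.2 CPM in the first and 83.0, 59.0, 120.4 and 99.7 CPM in the second set, with no such order in HFpEF library 2.

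Of the NRF2 axis, Nfe2l2 itself was the most abundant gene and was detected in every class. It had 156, 141, 160.4 and 159 CPM in capillary-gated ECs and 166, 149, 150.1 and 154 CPM in mural-gated cells. Artery-gated ECs had 193, 180.3, 268 and 209 CPM and vein-gated ECs 212, 189, 261 and 224 CPM. All artery and vein values exceeded all capillary and mural values, and the artery and vein ranges overlapped. Nfe2l2 was higher than in capillary-gated ECs by 0.35 in artery-gated (SE 0.07, adjusted p = 0.000155) and by 0.42 in vein-gated ECs (SE 0.09, adjusted p = 0.000861). In mural-gated cells the difference was -0.09 (SE 0.08, adjusted p = 0.35), and it turned to 0.03 (adjusted p = 0.79) with plain library totals. Over the alternatives it ranged from -0.27 to 0.03 with adjusted p down to 0.0142, so that Nfe2l2 was called lower in another alternative.

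Gclm and Gclc encode the modifier and the catalytic subunit of glutamate-cysteine ligase, which makes the rate-limiting step of glutathione synthesis. Gclm had 102, 100.1, 78.9 and 87.9 CPM in artery-gated ECs, all above the capillary values of 67.0, 71.4, 54.8 and 67.1 CPM. It was higher there by 0.42 (SE 0.09, adjusted p = 0.000331). In mural-gated cells, at 49.4, 72.4, 37.9 and 66.2 CPM, it was lower by 0.26 (SE 0.11, adjusted p = 0.0438), a call that was lost with plain library totals (-0.14) and in 3 of 4 fits without 1 library. In vein-gated ECs it was lower by 0.47 (SE 0.16, adjusted p = 0.0321), which was lost in 6 of 9 alternatives.

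Gclc was not called in artery-gated ECs. It had 39.6, 35.1, 36.0 and 38.2 CPM in capillary-gated and 41.2, 29.0, 36.4 and 44.4 CPM in artery-gated ECs, and the ranges overlapped. In mural-gated cells it was at 34.6, 18.9, 29.3 and 34.8 CPM, below the capillary value of the same library in 4 of 4, and lower by 0.48 (SE 0.13, adjusted p = 0.00346). That call was lost without NC library 2 (-0.30) and with gates on thinned cells (-0.24).

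Among the 4 classes tested, Txnrd1, the cytosolic thioredoxin reductase, was lowest in capillary-gated ECs. It had 34.1 and 41.4 CPM with NC and 43.3 and 54.1 CPM with HFpEF there, against 63.3, 69.3, 70.4 and 80.2 CPM in artery-gated ECs. Vein-gated ECs had 74.3, 61.2, 109.7 and 86.9 CPM and mural-gated cells 57.6, 59.0, 55.2 and 74.0 CPM. It was higher than in capillary-gated ECs by 0.64 in artery-gated (SE 0.08, adjusted p = 2.51e-07), 0.76 in vein-gated (SE 0.13, adjusted p = 3.77e-05) and 0.42 in mural-gated cells (SE 0.09, adjusted p = 0.000559). Only the mural call was lost under an alternative, without the 5% of cells with the most UMIs (0.22, adjusted p = 0.145). Srxn1, which encodes sulfiredoxin and repairs overoxidized peroxiredoxins, had 9.82 to 11.5 CPM in capillary-gated ECs and was called in no class.

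Hmox1, the inducible heme oxygenase, had a different order of classes. It was at 24.0, 27.2, 31.7 and 42.2 CPM in capillary-gated ECs and at 17.3, 18.9, 19.0 and 28.0 CPM in mural-gated cells, lower in 4 of 4 libraries. The difference was -0.67 (SE 0.20, adjusted p = 0.00732). In artery-gated ECs, with 44.5, 23.0, 30.3 and 34.4 CPM, it was -0.01 (SE 0.16, adjusted p = 0.978), and its sign turned under several alternatives. Outside the 4 main classes Hmox1 reached 146 to 764 CPM in the 3 to 36 myeloid-gated cells of a library and 59.7 to 177 CPM in fibroblast-gated cells.

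Nqo1 was low and Slc7a11 was close to the limit of detection in these cells. Nqo1, an NADPH-dependent quinone reductase, had 3.27 to 4.27 CPM in capillary-gated ECs from 339 UMIs, 8, 8, 0 and 9 UMIs in vein-gated ECs, and 20.6 to 52.8 CPM in 101 lymphatic ECs from 16 UMIs in all. Slc7a11, the cystine carrier of the exchanger xCT, had 17 UMIs in all capillary-gated ECs together and none in the artery- and mural-gated cells of any library. Outside these classes it had 269, 20.5, 73.0 and 536 CPM in myeloid-gated cells (8, 3, 2 and 80 UMIs), and in cells that met no gate it had 90.8 and 42.9 CPM with HFpEF (13 and 27 UMIs).

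**Figure D2:**
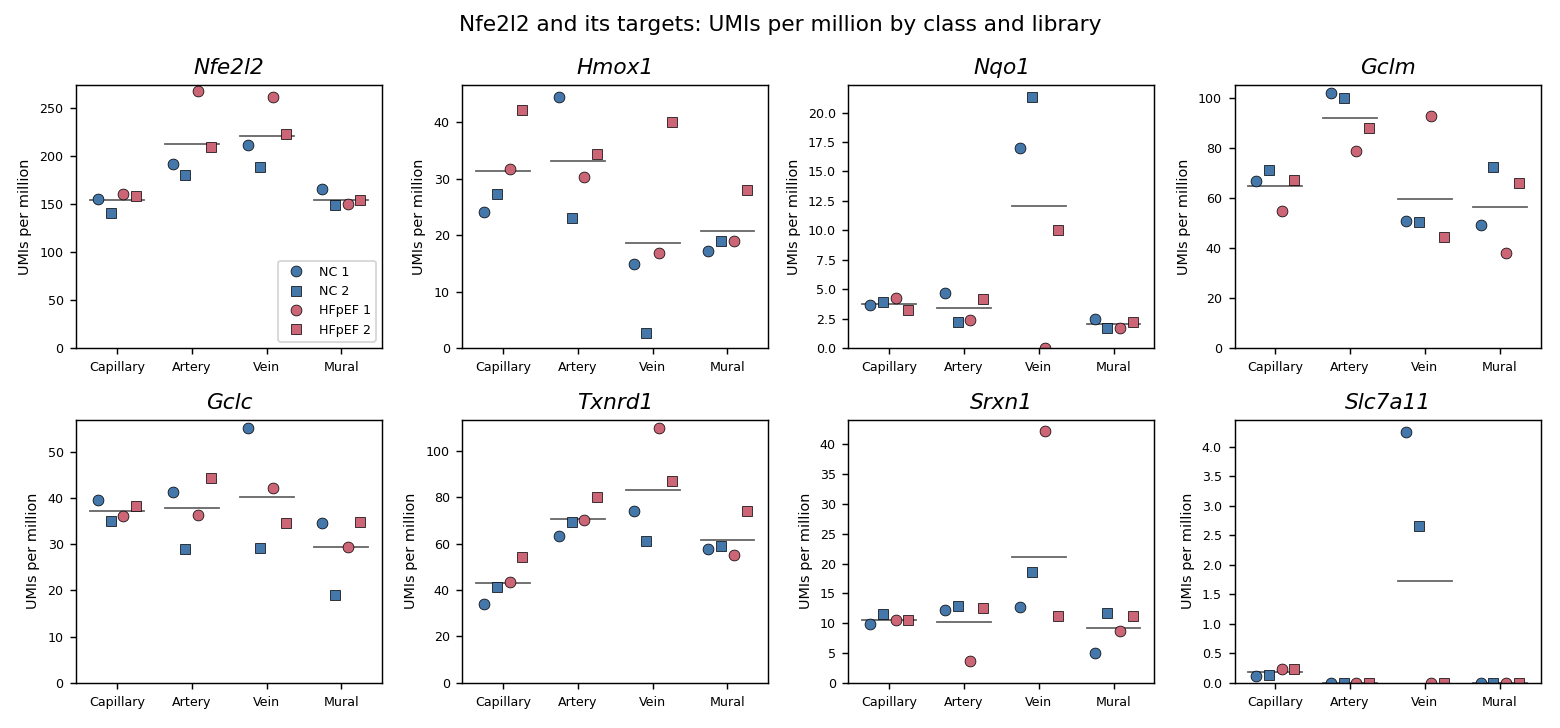
Nfe2l2, Hmox1, Gclm, Gclc, Txnrd1 and other NRF2 targets in CPM in the 4 classes; each point is 1 library. Txnrd1 in artery-gated ECs (63.3 to 80.2 CPM) lies above capillary-gated ECs (34.1 to 54.1 CPM), whereas Hmox1 in mural-gated cells (17.3 to 28.0 CPM) lies mostly below them.

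HFpEF was then compared with NC within each class, to ask whether the diet with L-NAME changed these genes. In artery-gated ECs the metallothioneins fell, and they were the 2 of 8 tested genes that were called, both lower. Of all genes tested, 0.370% were called here and 0.0823% were called lower. Mt1 went from 335 ± 21.7 CPM (mean ± SD, n = 2; 747 and 848 UMIs) to 139 ± 3.03 CPM (n = 2; 116 and 492 UMIs), without overlap. It fell by 1.25 on the log2 scale (SE 0.14, adjusted p = 0.000696, edgeR's quasi-likelihood test). Mt2 went from 110.5 ± 23.2 to 48.8 ± 2.04 CPM (n = 2 each), also without overlap, and fell by 1.14 (SE 0.19, adjusted p = 0.0188).

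Both calls held in all but 1 of the alternatives, with log2 changes of -1.18 to -1.54 for Mt1 and -0.91 to -1.34 for Mt2. With gates on cells thinned to 1000 UMIs, which sets the gates at the same depth in all libraries, the changes were -0.75 (adjusted p = 0.0789) and -0.76 (adjusted p = 0.0736). Mt1 then had 258, 275, 205 and 125 CPM and Mt2 82.1, 76.8, 55.5 and 42.1 CPM, so that the diets still did not overlap. In these artery-gated ECs the 10 mural markers summed to 439 and 354 CPM with NC and 345 and 293 CPM with HFpEF, with 8 to 10 detected. The 4 erythroid genes went from 0.469 and 3.01 CPM to 294 and 809 CPM, and Mt1 fell by 1.24 without hemoglobin-rich cells. Hspa1a, a heat shock gene that was also called higher here, had 3592 and 1889 CPM with NC and 5926 and 7964 CPM with HFpEF. The part of the mural and heat shock signals in the fall of Mt1 was not tested.

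In an analysis added after these values were seen, ECs were binned by the share of artery genes among their class marker UMIs. Below 5%, Mt1 was at 17.2 and 9.25 CPM with NC and 18.1 and 18.6 CPM with HFpEF. From 5 to 10% it had 17.4, 14.6, 9.98 and 17.7 CPM, so that the diets overlapped. Between 10 and 20% it had 18.7, 8.61, 54.3 and 21.2 CPM. Between 20 and 30%, a bin with 36.1% to 48.6% of the artery-gated cells of a library, it had 23.0, 6.998, 71.3 and 32.2 CPM. The latter values rest on 24, 7, 29 and 59 Mt1 UMIs. In thinned cells of this bin, the shares with an Mt1 UMI were 1.84%, 0.463%, 1.75% and 2.20%, so that the diets overlapped. In CPM, the HFpEF values lay above the NC values in the bins from 10 to 30%. Between 30 and 50% the order was the opposite. There Mt1 was at 116, 96.5, 53.7 and 54.1 CPM (87, 77, 15 and 64 UMIs). The shares of thinned cells with an Mt1 UMI were 3.49%, 4.14%, 2.70% and 2.20% there, on 6, 7, 3 and 9 cells. From 50% upward Mt1 was at 1596, 847, 353 and 427 CPM (637, 769, 76 and 393 UMIs). The last bin held 19.4%, 34.3%, 24.8% and 23.9% of the artery-gated cells but most of their Mt1 UMIs. Mt2 had 561, 257, 158 and 155 CPM there, and the diets did not overlap for either gene. Between 20 and 30% Mt2 had 11.5 and 1.00 CPM with NC (12 and 1 UMIs) and 12.3 and 18.0 CPM with HFpEF (5 and 33 UMIs). The lower HFpEF levels of both genes were seen in the bins from 30% upward and not in those from 10 to 30%. The mural markers were at 200.4, 198, 199.7 and 116 CPM in that bin, lower than the 484, 481, 379 and 351 CPM of the bin from 30 to 50%. In thinned cells of the last bin, 33 of 97, 50 of 193, 14 of 81 and 59 of 296 had an Mt1 UMI, which is 34.0%, 25.9%, 17.3% and 19.9%. With the gate raised to an artery share of at least 0.4, Mt1 had 1175, 650.02, 279 and 322 CPM and fell by 1.54. The bins and the 0.4 share were set on unthinned cells, whose depth differs between the diets. In the last bin the median depth was 2924, 4035.5, 1637.5 and 1684 UMIs per cell. The part of depth in the differences of these bins and of this gate was not tested.

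**Figure D3:**
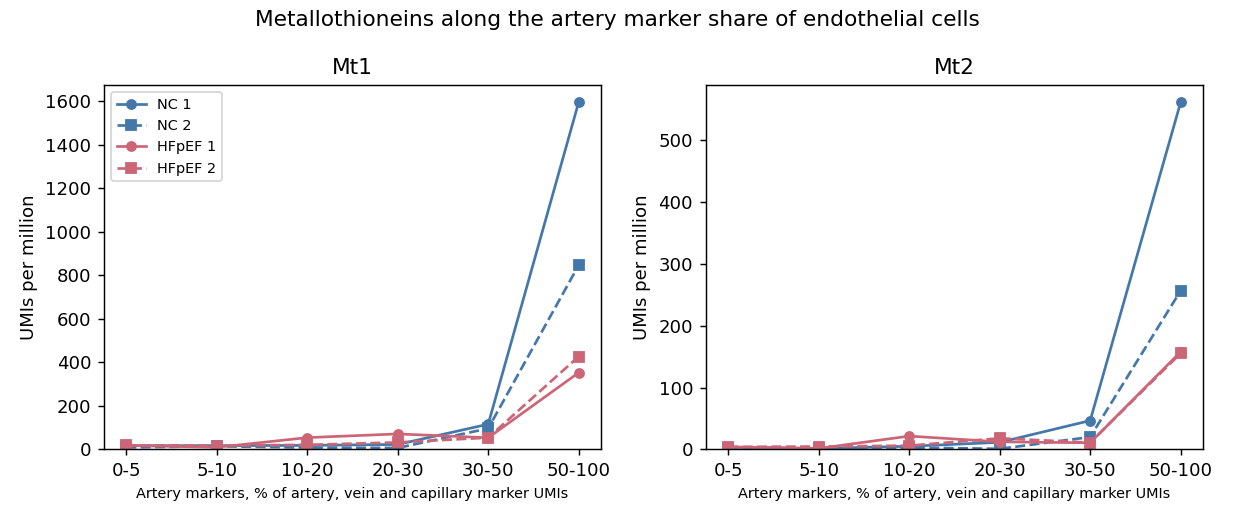
Mt1 and Mt2 in CPM (linear axis) by the share of artery genes among the EC class marker UMIs of a cell (percent). Each line is 1 library. Both genes are highest in the last bin in all 4 libraries, without a steady rise below it. Between 20 and 30% the HFpEF libraries lie above the NC libraries, on 7 to 59 Mt1 UMIs per library. From 50% upward Mt1 is at 847 and 1596 CPM in the NC and at 353 and 427 CPM in the HFpEF libraries.

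The other 6 genes tested in artery-gated ECs were not called. Nfe2l2 had the largest difference of them, 0.36 (SE 0.15, adjusted p = 0.393), and its HFpEF values were both above its NC values. Gclm differed by -0.23 (SE 0.15, adjusted p = 0.628), with both HFpEF values below both NC values. The median log2 difference of the 8 tested genes was -0.10, against -0.0040 over all genes tested. Unadjusted p was under 0.05 for 3 of the 8 (Nfe2l2, Mt1 and Mt2), as for 1068 of all 9723 genes.

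In capillary-gated ECs none of 9 tested genes was called by edgeR's quasi-likelihood test, where 0.0237% of all genes were. Unadjusted p was under 0.05 for 3 of the 9, Hmox1, Txnrd1 and Mt2, as for 2174 of all 12642 genes tested, and DESeq2 called 0 as well. Hmox1 differed by 0.55 (SE 0.14, adjusted p = 0.181), and both HFpEF libraries (31.7 and 42.2 CPM) lay above both NC libraries. Over the alternatives its difference ranged from 0.33 to 0.71 with adjusted p from 0.0380 to 0.456, and it was called only without HFpEF library 1 (0.71, adjusted p = 0.0380). Erythroid genes summed to 469 and 465 CPM with NC and 1076 and 3245 CPM with HFpEF in these cells, and without hemoglobin-rich cells Hmox1 differed by 0.56 (adjusted p = 0.18).

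Txnrd1 differed by 0.38 (SE 0.14, adjusted p = 0.242), Mt2 by 0.90 (SE 0.31, adjusted p = 0.233) and Mt1 by 0.58 (SE 0.29, adjusted p = 0.357) in capillary-gated ECs. For all 3 the HFpEF libraries lay above the NC libraries, with Mt1 at 18.3 CPM in 1 HFpEF and 17.5 CPM in 1 NC library. Without the 5% of cells with the most UMIs the diets overlapped for both metallothioneins. Mt1 was then at 17.3, 9.65, 15.6 and 17.2 CPM and Mt2 at 3.37, 1.97, 3.07 and 3.44 CPM. The other 5 genes differed by less than 1.5 times their SE. The share of all genes in which the diets do not overlap was not counted. For uncalled genes of any class, such an order alone therefore shows no change. Over the 9 genes the median was 0.11 and 6 were above 0, against a median of -0.0047 over all genes.

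In vein-gated ECs none of 6 tested genes was called, where 0.0343% of all genes were. Unadjusted p was under 0.05 for 1 of the 6 (Mt2), as for 364 of all 5824 genes tested, and DESeq2 called 0. These ECs numbered 50 to 312 per library, and the libraries of each diet were far apart for Mt1 (577 and 250.03 CPM in NC, 582 and 56.8 CPM in HFpEF). Mt1 differed by -0.80 (SE 0.73, adjusted p = 0.898) and Mt2 by -2.17 (SE 0.91, adjusted p = 0.765). Single libraries decided these values. Without NC library 2 Mt1 was -1.31 (adjusted p = 0.0075) and Mt2 -2.93 (adjusted p = 1.88e-11), and without HFpEF library 1 they were -2.87 (adjusted p = 0.000147) and -3.92 (adjusted p = 0.000561). Without HFpEF library 2 Mt1 turned to 0.54 (adjusted p = 0.871) and Mt2 was -0.15. Txnrd1 differed by 0.44 (SE 0.29, adjusted p = 0.852). The median log2 difference of the 6 genes was -0.07, against -0.0019 over all genes.

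In mural-gated cells none of 8 tested genes was called, where 0.207% of all genes were. Unadjusted p was under 0.05 for 1 of the 8 (Mt2), as for 955 of all 9656 genes tested, and DESeq2 called 0. Mt1 differed by -0.27 (SE 0.13, adjusted p = 0.544), although both HFpEF values lay below both NC values. Mt2 differed by 0.55 (SE 0.23, adjusted p = 0.429) in the other direction, and without HFpEF library 2 by 0.92 (adjusted p = 0.0234). Hmox1 differed by 0.49 (SE 0.29, adjusted p = 0.629). The median over the 8 genes was 0.25, against -0.0049 over all genes.

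**Figure D4:**
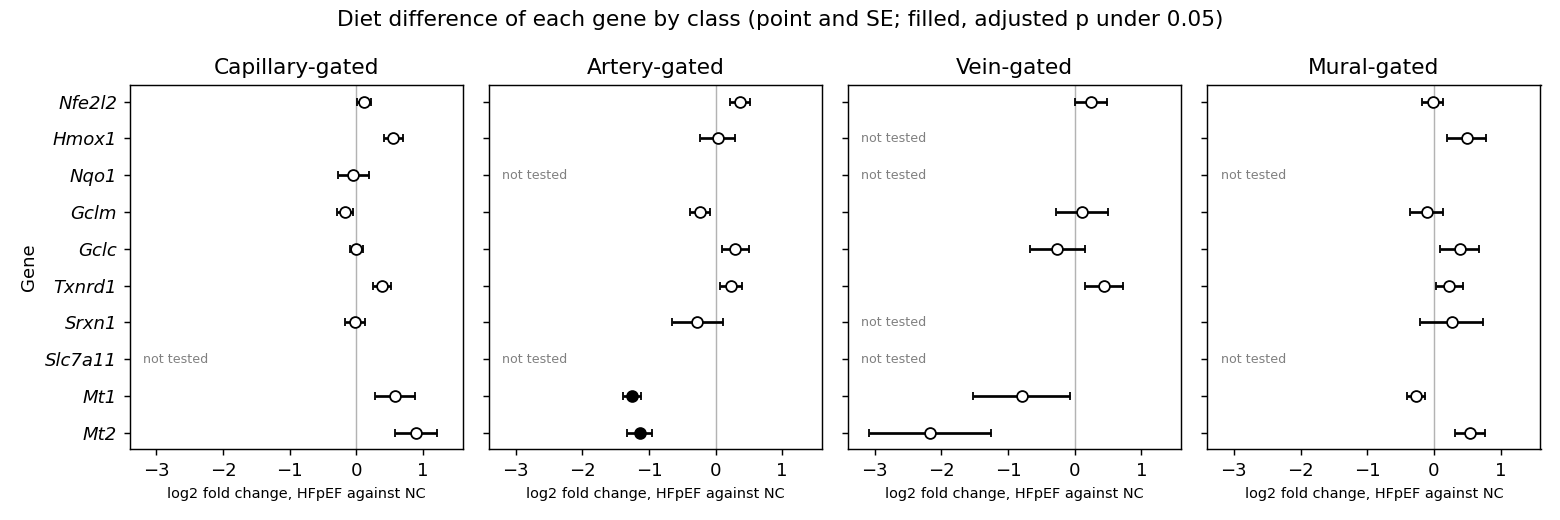
Log2 fold change of HFpEF against NC, with 1 SE on each side, for each gene tested in the 4 classes. Mt1 (-1.25) and Mt2 (-1.14) in artery-gated ECs lie below 0, and in capillary-gated ECs the same genes lie at 0.58 and 0.90.

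Whether the diet difference itself depended on the class was tested by an interaction term. For artery- against capillary-gated ECs, a comparison added after the artery result was seen, 0.253% of all genes were called and 0.131% were called with a negative value, and 2 of 9 of these genes were called, both negative. The difference of differences was -1.85 for Mt1 (SE 0.18, adjusted p = 1.13e-07) and -1.99 for Mt2 (SE 0.24, adjusted p = 7.15e-06). Over all settings run it stayed called and ranged from -1.47 to -2.31 for Mt1 and from -1.85 to -2.33 for Mt2. Within capillary-gated ECs the HFpEF values were above NC, and within artery-gated ECs below. Without the 5% of cells with the most UMIs, a setting not run for the interaction, the capillary values of both genes overlapped between the diets. For mural-gated cells against capillary-gated ECs, where 0.480% of all genes were called and 0.269% were called with a negative value, only Mt1 of 9 was called, at -0.88 (SE 0.17, adjusted p = 0.00451). That call rested on NC library 2, without which it was -0.46 (adjusted p = 0.869). Mt2 was at -0.41 (adjusted p = 0.893) there.

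Genes around the pathway were taken from 9 lists of 77 genes. In HFpEF against NC, no gene of the lists was called by edgeR's quasi-likelihood test in capillary-gated ECs (71 tested, 22 at an unadjusted p under 0.05) or vein-gated ECs (57 tested, 8 under 0.05). Of all genes, 2174 of 12642 were under 0.05 in capillary-gated and 364 of 5824 in vein-gated ECs. DESeq2 called 5 of the list genes in capillary-gated ECs (Mafk, Tfrc, Gstp1, Hspa1a and Hspa1b), where it called more of all genes than edgeR did. In the other classes it called 0. In artery-gated ECs 1 of 70 was called, Hspa1a (higher by 1.37, adjusted p = 0.0254), and in mural-gated cells 2 of 68, Hspa1b (1.65) and Hspa1a (1.35, adjusted p = 0.0237 for both). These 2 heat shock genes are near-identical copies, and reads may have been split between them.

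Among the 8 regulators of NRF2 (its inhibitor Keap1 with Cul3, the competitor Bach1, the small MAF partners Mafg, Maff and Mafk, the KEAP1-binding adaptor Sqstm1 and the related factor Nfe2l1), edgeR called 0 in capillary-gated ECs, 2 (Mafk and Maff) had an unadjusted p under 0.05, and DESeq2 called 1 (Mafk). Mafk had 66.6 and 56.0 CPM with NC and 81.8 and 99.7 CPM with HFpEF (log2 difference 0.58, adjusted p = 0.165). Maff (0.49, adjusted p = 0.224) had all HFpEF values above NC as well, and Bach1 differed by 0.24 (adjusted p = 0.352). Between classes, 4 of the 8 were higher in artery-gated than in capillary-gated ECs (15.6% of all genes were), among them Mafk by 0.72 and Maff by 0.55, and 2, Mafk (1.21) and Maff (0.60), were higher in mural-gated cells (23.5% of all genes). Bach1 was the single regulator called in vein-gated ECs (25.4% of all genes), higher by 0.56.

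Of 13 other thiol genes, edgeR called 0 in capillary-gated ECs, with 2 (Gstm1 and Gstp1) at an unadjusted p under 0.05, and DESeq2 called 1. Gstp1, a glutathione transferase with a close paralog that makes its count uncertain, differed by 0.99 (adjusted p = 0.139), Gstm1, another transferase, by -0.39 (adjusted p = 0.184), and Gpx4, which reduces lipid hydroperoxides, by -0.24 (adjusted p = 0.324). In artery-gated against capillary-gated ECs 4 of the 13 were higher and 1 lower, against 31.3% of all genes called in either direction, with Gstp1 higher by 1.05 and Gpx4 lower by 0.33. The transferase Gsta4, higher by 2.61 in artery-gated ECs, was picked out after its value was seen. Of 6 NADPH genes edgeR and DESeq2 called 0 in capillary-gated ECs, 0 were at an unadjusted p under 0.05, and Taldo1, Pgd and Idh1 differed by -0.19, -0.18 and -0.17. The xenobiotic genes Abcc4 (-0.14), Ugdh (0.09) and Ephx1 (-0.07) were not called either, and 1 of 6 tested (Cbr3) had an unadjusted p under 0.05 by edgeR. In artery-gated against capillary-gated ECs 2 of 7 tested xenobiotic genes were higher and 1 lower, against 31.3% of all genes called in either direction. Ephx1, an epoxide hydrolase, was higher there by 0.90.

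Of 8 tested heme and iron genes, Tfrc, the transferrin receptor, had 26.7 and 29.1 CPM with NC and 39.0 and 44.2 CPM with HFpEF in capillary-gated ECs (0.59, adjusted p = 0.139). Flvcr1, a heme exporter, differed by 0.51 (adjusted p = 0.276) and Blvrb, a biliverdin reductase, by -0.37 (adjusted p = 0.278). Of the 8, edgeR called 0 and DESeq2 called 1 (Tfrc). By edgeR 4 of them (Tfrc, Flvcr1, Blvrb and Hmox2) had an unadjusted p under 0.05, as had 2174 of all 12642 genes tested. Of the zinc genes, the zinc importer Slc39a1 had 101, 80.2, 113 and 238 CPM (0.97, adjusted p = 0.209), with HFpEF library 2 apart from the others. Mtf1, the factor that reads the MRE, differed by 0.36 (adjusted p = 0.252) and Slc39a10 by 0.25 (adjusted p = 0.285). These 3 of 6 tested zinc genes had an unadjusted p under 0.05 by edgeR, and edgeR and DESeq2 called 0. In mural-gated cells 3 of 5 tested zinc genes were lower than in capillary-gated ECs (22.9% of all genes), with Slc39a10 lower by 0.59 and Slc39a1 by 0.33, and in artery-gated ECs 2 of 5 were higher (15.6% of all genes).

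ATF4 targets, which share Slc7a11 with NRF2, had Trib3 at -0.73 (adjusted p = 0.189), Asns at 0.35 (adjusted p = 0.243) and Ddit3 at -0.18 (adjusted p = 0.634) in capillary-gated ECs. Over the 7 tested genes of this list the median was 0.35 and 5 were above 0, and edgeR and DESeq2 called 0. By edgeR 4 of the 7 (Chac1, Trib3, Sesn2 and Asns) had an unadjusted p under 0.05, as had 2174 of all 12642 genes tested. Glucocorticoid targets were included because metallothioneins respond to these hormones. Fkbp5 had 32.8 and 15.2 CPM with NC and 8.54 and 13.1 CPM with HFpEF (-1.08, adjusted p = 0.221), Zbtb16 differed by -0.997 (adjusted p = 0.243) and Klf9 by -0.40 (adjusted p = 0.237). All 3 lay lower in both HFpEF libraries than in both NC libraries, an order that was not counted over all genes. Over the 7 tested genes of the list the median was -0.22 with 2 above 0, and these 3 had an unadjusted p under 0.05 by edgeR. In artery-gated ECs the median of the 7 was -0.18, again with 2 above 0, and edgeR and DESeq2 called 0. Fkbp5 had 42.2, 20.3, 10.9 and 13.9 CPM there (-1.20, adjusted p = 0.167), and Fkbp5, Zbtb16 (-0.78) and Sgk1 (0.32) had an unadjusted p under 0.05. The part of glucocorticoid signalling in the metallothionein values was not tested. In capillary-gated ECs Hspa1b (1.71), Hspa1a (1.48, adjusted p = 0.139 for both) and Dnajb1 (0.40, adjusted p = 0.224) lay higher in both HFpEF libraries. They were not called by edgeR, whereas DESeq2 called Hspa1b and Hspa1a. These 3 of 10 tested genes had an unadjusted p under 0.05 by edgeR.

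The pattern over the 16 sums of classes and libraries was compared between genes by Pearson's r of log2(CPM + 1), as a description, since the sums share libraries and depth. Mt1 and Mt2 correlated with r = 0.96. The genes closest to Mt1 among those with a mean of at least 10 CPM were Esyt2 (0.94), Trip6 (0.94) and Scd2 (0.94), and the closest to Mt2 were Igfbp4 (0.94), Scd2 (0.92) and Trip6 (0.91). Nfe2l2 was closest to Emp1 (0.90), Anxa7 (0.89) and Rps6ka3 (0.89), and Txnrd1 to Cd74 (0.92), H2-Eb1 (0.91) and Tgif1 (0.90), while Nfe2l2 and Txnrd1 had r = 0.74 with each other. Hmox1 was closest to Srgap1 (0.91), Cul2 (0.90) and Mier1 (0.89), Gclm to Prex1, Nfkbib and Fat4 (0.87 to 0.88), and Srxn1 to Polr2k (0.95), Dimt1 (0.85) and Lrrc49 (0.84). Nqo1 and Slc7a11 had means under 10 CPM and were not compared.

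Metallothionein levels in the rarer classes rest on few cells. Mt1 had 137, 32.1, 52.8 and 21.5 CPM in 28 to 97 endocardial ECs per library, and Mt2 had 239 to 2074 CPM in fibroblast-gated cells, the highest of any class. In 101 lymphatic ECs Mt1 lay between 0 and 35.2 CPM. In 58 B cells and 42 T cells no Mt1 or Mt2 UMI was found.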

How the data were processed

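Per the labels, 4 single-cell libraries (2 NC, 2 HFpEF) were made from sorted RFP-positive left ventricular cells. The deposited values are UMI counts per gene and cell, which the authors made with fastp and Cell Ranger 5.0.1 on mm10. The paper describes downsampling by reads per cell on the way to its aggregated matrix. Whether the deposited counts were downsampled was not tested. The counts are not divided by depth, which sets how precisely low genes can be read.

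The members and lists were chosen with earlier results of these data known. Cells with 200 genes or fewer or 20% or more mitochondrial UMIs were left out, and classes were gated on marker UMIs (at least 2 pan-EC markers, at least 2 class markers, at least 3 mural markers). Counts were summed per library and class. Calculations used Python 3.11.15, numpy 2.4.6, scipy 1.17.1, pandas 2.3.3, matplotlib 3.10.9 and, in R 4.3.3, edgeR 4.0.16 (TMM, filterByExpr, glmQLFTest, adjusted p under 0.05 as a call), with DESeq2 1.42.0 as an alternative. The SE is the absolute log2 fold change divided by the square root of F. All 10 genes were named. Of the lists, genes called in HFpEF against NC and the 3 largest differences per list in capillary-gated ECs (mean of at least 10 CPM) were named. Fold changes of the 10 genes are printed from 1.5 SE upward or where called in any setting. Those of the named list genes are printed whatever their SE. The genes with a pattern closest to Gclc are not reported here. Doublets were not called. Libraries shared 10 to 42 cell barcodes per pair. Artery bins, the 0.4 artery share, the mural split and the artery interaction were added after seeing the data. Fits were tested on simulated data. Of simulated diet changes of 0.5 on the log2 scale, 2.99% were recovered in capillary and mural sums. In vein and artery sums 7.46% and 10.4% were. Of changes of 1, 79.1% were recovered in capillary, 65.7% in artery, 46.3% in mural and 44.8% in vein sums. Interaction changes of 1 were recovered in 7.46% for mural and 17.9% for artery sums. The simulated dispersion, the spread between libraries, was 0.02 for every gene. The lack of a call for a difference of these sizes therefore does not show that a gene was unchanged.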

Additional observations from a re-analysis of the deposited data

Results flagged for a closer look

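In 3 cases, tests of a difference in the diet effect between classes passed the threshold. The diet effect on Mt1 was more negative in artery-gated than in capillary-gated ECs by -1.85 on the log2 scale (edgeR's quasi-likelihood test, adjusted p = 1.13e-07), and that on Mt2 by -1.99 (adjusted p = 7.15e-06). Both HFpEF libraries lay below both NC libraries in artery-gated ECs and above them in capillary-gated ECs. Without the 5% of cells with the most UMIs, the capillary values of both genes overlapped between the diets. The interaction was not fitted in that setting. This comparison was added after the artery result had been seen. The diet effect on Mt1 in mural-gated cells minus that in capillary-gated ECs was -0.88 (adjusted p = 0.00451), and without NC library 2 it was -0.46 (adjusted p = 0.869). With 2 libraries per diet, the search for a single deviating library within a group was not possible.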

How the results depend on the processing

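Of 40 fold changes reported for the 10 genes, recomputed in 382 alternatives, 343 kept their direction and their side of the threshold, 16 lost a call, 12 gained one and 11 changed sign. Of 193 alternatives of the 21 called values, 177 stayed called. No alternative changed the direction of a called value.

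With gates on thinned cells, 0 of the 10 genes were called in artery-gated ECs. In vein-gated ECs 1 was called without the low-count filter (Mt2, -2.18, adjusted p = 2.69e-07). Leaving out each library in turn, Hmox1 gained a call in capillary-gated ECs (without HFpEF library 1) and Mt2 in mural-gated cells (without HFpEF library 2). In vein-gated ECs Mt1 and Mt2 gained a call without NC library 2 or HFpEF library 1. The difference in the diet effect on Mt1 between mural-gated cells and capillary-gated ECs lost its call without NC library 2. With 1 library left in a diet, that library is assumed to vary like the others, and the cause was not tested.

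The values that changed sign were uncalled. Hmox1 in artery- against capillary-gated ECs turned to 0.067 with library totals and 0.10 without the cells with the most UMIs, and ranged from -0.33 to 0.19 without 1 library, and it was called at -0.69 with an artery share of at least 0.4. Its diet difference between these classes turned from -0.58 to 0.016 without NC library 1, 0.091 with thinned gates and 0.31 with the 0.4 share, and it was called without NC library 2 (-1.12). Gclc turned there to -0.11 with thinned gates. Nfe2l2 in mural- against capillary-gated cells turned to 0.029 with library totals and was called lower in another alternative. Mt1 in vein-gated ECs ranged from -2.87 to 0.54 without 1 library. Hmox1 in vein- against capillary-gated ECs was called without the filter (-0.62) and without HFpEF library 2 (-1.43).

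Samples with the same replicate number did not deviate together, and no pairing by number was seen. The r over genes was -0.018, 0.053, -0.049 and 0.0061 in capillary-, artery- and vein-gated ECs and mural-gated cells. With the replicate block, 0, 2, 0 and 0 of the 10 genes were called, as without it, and 135, 64, 2 and 2 of all genes instead of 3, 36, 2 and 20.

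Counts over all genes moved more. In capillary-gated ECs they were 3, against 232 with DESeq2, 185 without the filter, 1 with thinned gates and 0 to 244 without 1 library. In artery-gated ECs they were 36, against 14, 244, 53 and 81 to 216. In vein-gated ECs they were 2, against 3, 64, 12 and 3 to 56, and 1 with library totals. In mural-gated cells they were 20, against 9, 174, 25 and 89 to 133, with 11 for library totals and 37 without the cells with the most UMIs. The interaction counts were 57 for mural-gated cells (29 with thinned gates, 21 to 116 without 1 library) and 29 for artery-gated ECs (16 and 12 to 85). HFpEF cells were shallower, so genes under about 10 CPM in the smaller classes rest on few UMIs.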

Other observations

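Me1 (malic enzyme, an NADPH source) and the aldo-keto reductase Akr1b8, both on the lists of NRF2 targets, were picked out after their values were seen. Me1 was higher than in capillary-gated ECs by 2.36 on the log2 scale in artery-gated ECs (edgeR's quasi-likelihood test, adjusted p = 6.54e-07) and by 3.43 in vein-gated ECs (adjusted p = 1.02e-06). Akr1b8 was higher in mural-gated cells by 6.03 (adjusted p = 2.31e-13). Idh1, another NADPH source, was lower in artery-gated ECs by 0.70 (adjusted p = 0.000286).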
